A study of Homo sapiens with 2 samples.

Results

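The genes described here are the ERBB receptor tyrosine kinases and the ligands that activate them through EGFR: the receptors EGFR, ERBB2, ERBB3 and ERBB4 and the ligands EREG, AREG, HBEGF, TGFA, BTC and EPGN. They were chosen by name, 10 genes in all, with earlier results of these data known. Each was read from the probe set that carries its symbol alone. A probe set is a group of probes that the array summarises into a single signal. Of the 10 genes, 8 had such a probe set, among 22465 genes with one on the array. The probe set annotated to ERBB2 also carries a second gene symbol and was left out, and no probe set listed under AREG was analysed here. No value is therefore given for ERBB2 or AREG.

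The cells were IGROV1-R10, a human ovarian carcinoma line selected for resistance to cisplatin. One culture was transfected with a miR-491-5p duplex and the other with a control miRNA duplex, each at 20 nM and 24 hours after the cells were seeded, and total RNA of each was hybridised to 1 whole-transcript array. All cells were of this single line, both cultures received a duplex with the same transfection reagent, and no untransfected culture was analysed here. With 1 array per group, the variation between cultures is unknown and no difference was tested. Values are taken as log2 signals: the log base is not stated and base 2 is that of the method used, RMA, so every fold rests on it. Each difference subtracts the control miRNA value from the miR-491-5p value, and "lower" and "higher" describe these 2 arrays alone.

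ERBB receptors sit in the plasma membrane, where a bound ligand brings them together in pairs and their kinase domains phosphorylate each other. The phosphorylated tails recruit adaptors that start RAS-ERK and PI3K-AKT signalling. The ligands are made as membrane-anchored precursors and are released by metalloproteases, so a carcinoma cell can stimulate itself. A miRNA guides Argonaute proteins to messenger RNAs, mainly through pairing of its seed, bases 2 to 8, and the paired messenger RNAs are translated less and degraded sooner.

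The sequence delivered to the cells is shown with its seed, because the seed sets which messenger RNAs it can pair with. It is given beside the only other mature human miRNAs in the RefSeq table that share its bases 2 to 7. Sequences run 5′ to 3′ and capitals mark bases 2 to 8.
hsa-miR-491-5p: aGUGGGGAacccuuccaugagg
hsa-miR-6742-5p: aGUGGGGUgggacccagcuguu
hsa-miR-4447: gGUGGGGGcuguuguuu
The mature miR-491-5p sequence is 22 bases long and lies at chr9:20716120-20716141 on the plus strand of GRCh38.p14, within the MIR491 hairpin. Of 2545 mature sequences in the table, 1 (miR-491-5p itself) has the seed GUGGGGA, and 3 share bases 2 to 7. The complementary stretch in a target, written as DNA, is TCCCCAC. Transcript sequences of the ERBB genes were not used here, so their sites for this seed were not counted.

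Signals of 14373 genes reached 5.55, the median of all values on both arrays, on at least 1 array, and this was used as a filter on low values. Of the 8 genes with a value, 7 passed it, each on both arrays. Of 8 epithelial and ovarian carcinoma markers, 8 passed the filter, including the lineage factor PAX8 (14.59 on the miR-491-5p array, 14.77 on the control miRNA array) and EPCAM (13.29 and 12.93). MUC16 lay close above the filter, at 5.94 on the miR-491-5p array and 5.89 on the control miRNA array. The markers of this list with the largest differences went both ways: KRT18 differed by -0.60 (1.52-fold lower) and KRT8 by -0.44, whereas CDH1 differed by 0.50 and MECOM by 0.45. Of 5 markers each, 1 endothelial, 2 leukocyte and 1 fibroblast marker passed. These were CDH5, CD68, CD3E and COL1A1. The leukocyte marker CD68 read 10.54 on the miR-491-5p array and 10.76 on the control miRNA array, well above the filter. CD3E read 5.59 and 5.94 and COL1A1 5.51 and 5.58, both close to it. The pan-leukocyte marker PTPRC read 4.68 on the miR-491-5p array and 4.76 on the control miRNA array, below the filter. CDH5 read 11.10 on the miR-491-5p array and 13.23 on the control miRNA array, whereas the other 4 endothelial markers, among them PECAM1 (4.51 and 4.35) and VWF (5.07 and 5.20), were below the filter on both.

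EGFR and its ligand EREG were lower by 2-fold or more in cells given miR-491-5p, and no member was higher by that much. These were 2 of the 7 members above the filter. The members were chosen with earlier results of these data known. The shares of all genes set beside them, here and below, are therefore descriptions and not tests. Of all 14373 genes, 0.758% were lower by 2-fold or more and 0.0487% higher. At 1.5-fold the same 2 members were lower and 0 higher, against 3.62% of all genes lower and 0.675% higher. At 3-fold EGFR was left, with 0.132% of all genes lower. The median difference of the 7 members was -0.20, and that of all genes was -0.07. In all, 5 of the 7 differences were negative, where 64.8% of all genes had a negative difference. In RNA from whole cultures, fewer cells of a type and less RNA per cell cannot be told apart.

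**Figure D1:**
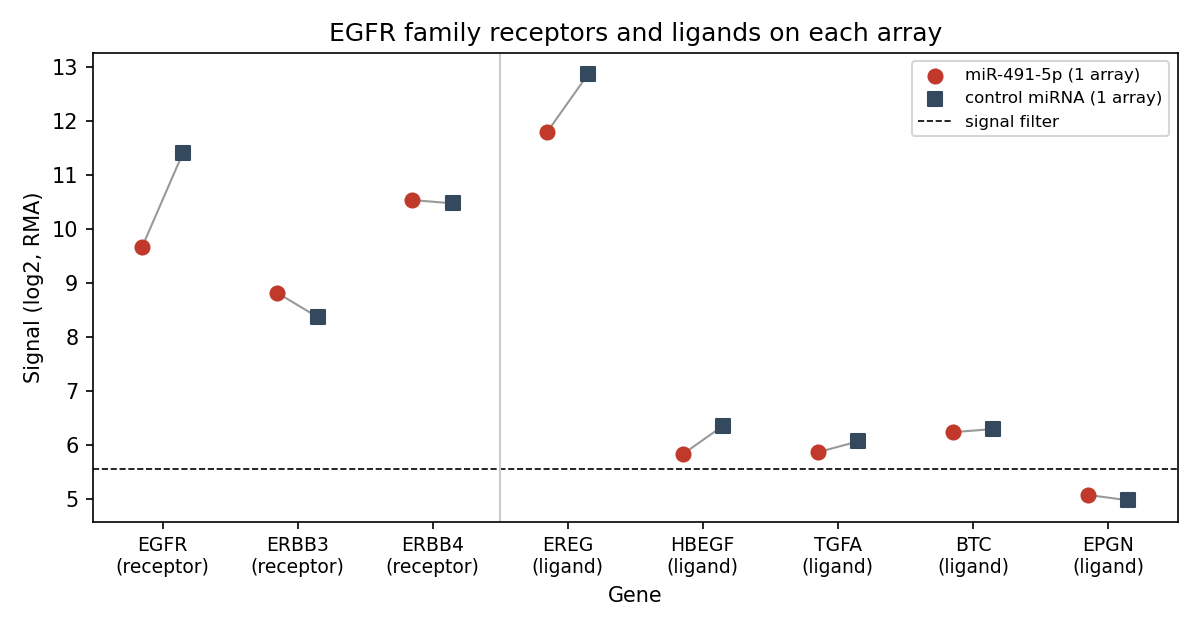
Log2 signal of each EGFR family receptor (left of the grey line) and ligand (right) on the miR-491-5p array (red circles) and the control miRNA array (dark squares), 1 array per group, with the signal filter of 5.55 as a dashed line. EGFR and EREG have the steepest links between arrays, ERBB3 slopes the other way, HBEGF, TGFA and BTC lie close above the filter and EPGN lies below it; signals of different genes come from different probes and are not comparable in level.

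Among the receptors, the differences ran in both directions. EGFR, the receptor for all 6 ligands named here, had a signal of 9.67 on the miR-491-5p array, against 11.40 on the control miRNA array. This is a difference of -1.73, or 3.32-fold lower. Only 11 of the 14373 genes, EGFR included, had a difference this negative or more so (0.0765%).

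ERBB3, a receptor with a weak kinase domain that signals by pairing with the other family members, read 8.81 on the miR-491-5p array and 8.36 on the control miRNA array. Its difference of 0.45 (1.37-fold higher) was the highest of the members, and 212 genes (1.47%) had a difference at least as high. ERBB4, a neuregulin receptor that also binds EREG, HBEGF and BTC, read 10.53 on the miR-491-5p array and 10.47 on the control miRNA array. The ERBB4 difference was 0.06, and 24.2% of all genes had one at least as high. The differences of EGFR and ERBB3 lay 2.18 apart on the log2 scale. With 1 array per group, the spread between cultures that this gap would have to exceed is unknown.

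All 4 ligands above the filter had a negative difference as deposited, where 64.8% of all genes had one. After median centring or a loess correction 3 of 4 were negative, and BTC read 0.01. Centring makes negative and positive differences about equally common over all genes by construction. EREG (epiregulin), which binds EGFR and ERBB4, read 11.80 on the miR-491-5p array and 12.86 on the control miRNA array. It was 2.08-fold lower, a difference of -1.06, and 86 genes (0.598%) had a difference this negative or more so. EREG lies close to the 2-fold bound: its difference was -0.99 after either scaling. HBEGF, a heparin-binding ligand of EGFR and ERBB4, read 5.82 on the miR-491-5p array and 6.35 on the control miRNA array. Its difference of -0.53 (1.44-fold lower) did not reach 1.5-fold, and 698 genes (4.86%) had one this negative or more so.

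The remaining ligands differed little. TGFA, an EGFR ligand made by many epithelial cells, read 5.86 on the miR-491-5p array and 6.06 on the control miRNA array, a difference of -0.20 that 25.9% of all genes matched or passed on the negative side. BTC (betacellulin) read 6.23 on the miR-491-5p array and 6.29 on the control miRNA array, a difference of -0.06 that 53.5% of genes matched or passed. EPGN (epigen), a low-affinity ligand of EGFR, read 5.07 on the miR-491-5p array and 4.97 on the control miRNA array, below the filter on both. The lower value of HBEGF lay 0.27 above the filter, that of TGFA 0.31 and that of BTC 0.68, so these 3 ligands had signals in a range where background, which is unknown here, weighs most.

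**Figure D2:**
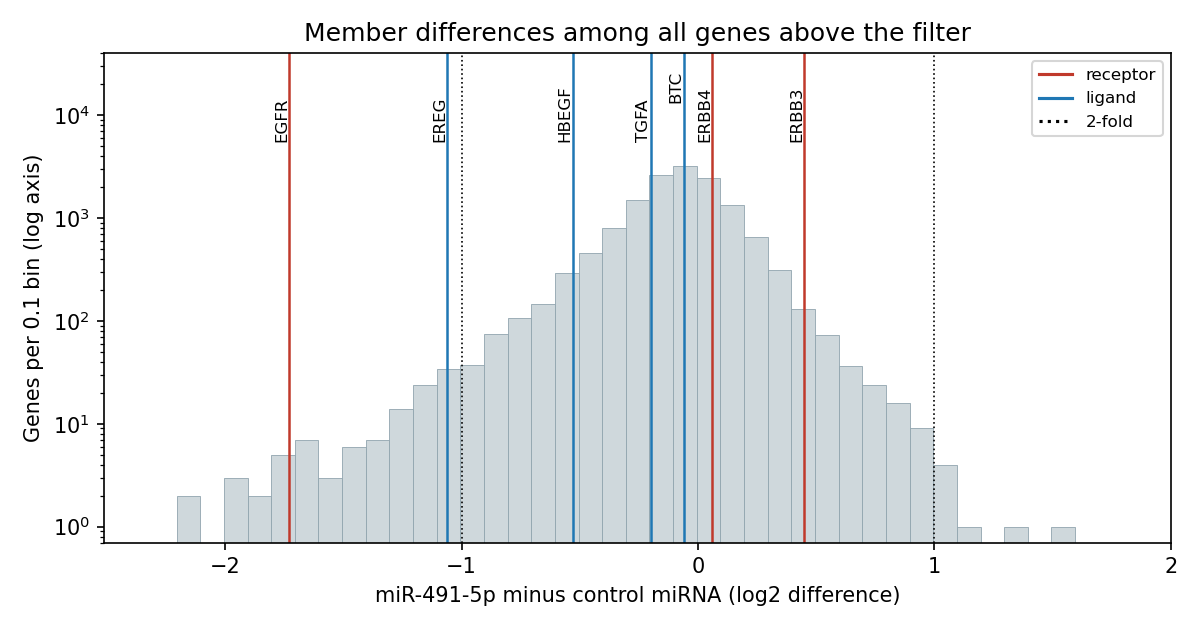
Histogram of the miR-491-5p minus control miRNA log2 difference over 14373 genes above the filter, in bins of 0.1 on a log count axis, with vertical lines for the 3 receptors (red) and 4 ligands (blue) above the filter and dotted lines at 2-fold. EGFR at -1.73 and EREG at -1.06 lie in the sparse left tail, HBEGF at -0.53 on the left flank, ERBB3 at 0.45 on the right flank, and TGFA, BTC and ERBB4 in the bulk.

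The named genes nearest to EGFR in difference over the 2 arrays were SLC25A23 (-1.71), a mitochondrial carrier, and SAMD4B (-1.76), an RNA-binding protein. The third place was tied, so that 4 genes lay within 0.05 of EGFR. For EREG, 4 genes had the identical difference of -1.06. With 2 arrays this likeness is a single number per gene.

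The nearest genes above the filter around EGFR and EREG on their chromosomes differed less between the arrays. They had to pass the filter, so some lie far from the member. Before EGFR, which starts at 55019017, RNU1-14P ends at 53366211, COBL at 51316809 and GRB10 at 50793453. Of the 6 nearest genes above the filter around EGFR on chromosome 7, 3 on each side, differences ran between -0.33 (GRB10, an adaptor of receptor tyrosine kinases) and 0.09 (LANCL2, a glutathione-binding protein). VOPP1, the next gene past LANCL2, read 7.55 on the miR-491-5p array and 7.72 on the control miRNA array. EREG lies on chromosome 4 in a run of ligand genes in the order EPGN, EREG, AREG and BTC. AREG, which follows EREG in this run, has no value. EPGN and BTC, which flank EREG and AREG, differed by 0.10 (below the filter) and -0.06, and the 6 nearest genes above the filter outside this run by -0.27 (the chemokine CXCL2) to 0.06 (the kinase CDKL2). Of these neighbours, MTHFD2L, a mitochondrial folate enzyme next to EPGN, read 6.89 on the miR-491-5p array and 6.96 on the control miRNA array. PF4 read 5.58 on the miR-491-5p array and 5.55 on the control miRNA array, CXCL2 5.36 and 5.63, and CDKL2 5.93 and 5.87. These signals lay close to the filter, where background, which is unknown here, weighs most. Around EGFR, the neighbours RNU1-14P and FKBP9P1 are annotated as pseudogenes.

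**Figure D3:**
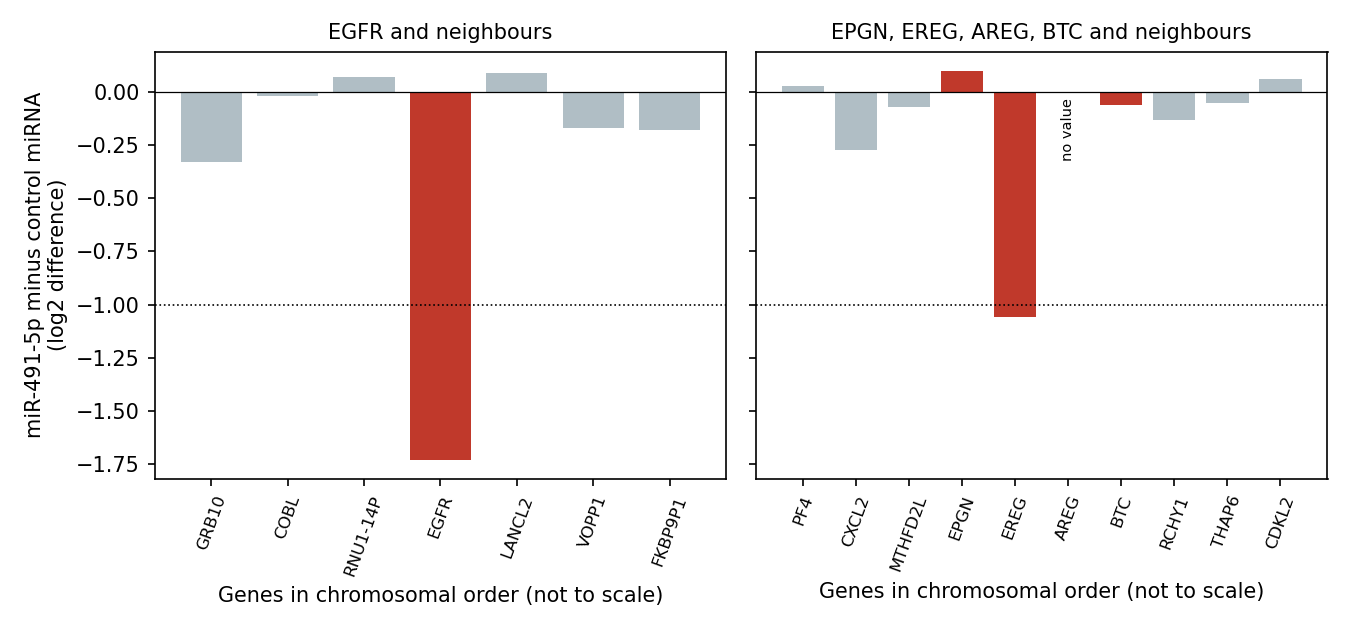
Bars give the miR-491-5p minus control miRNA log2 difference of EGFR with its neighbours (left) and of EPGN, EREG, AREG and BTC with theirs (right), in chromosomal order and not to scale. Red bars are family members, grey bars are the 3 nearest genes above the filter on each side, and the dotted line marks 2-fold lower. EGFR (-1.73) and EREG (-1.06) extend far below the other genes with a value shown, none of which is lower than -0.33. Grey genes had to pass the filter, so some lie far from the member. Signals of PF4, CXCL2 and CDKL2 lie close to the filter, and AREG has no value.

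The promoters of EGFR and EREG are printed because these are the members past 2-fold and they differ in the promoter elements they hold. Each RefSeq window (GRCh38.p14) holds 250 bases before the annotated start and 50 from it onwards, and capitals mark every match on either strand to any of 4 motifs. The TATA box was searched as TATAAA. The GC box bound by Sp1 was searched as GGGCGG. The AP-1 site, where N is any base, was searched as TGANTCA. The ETS site was searched as CCGGAAG, and no matches of different motifs overlapped in the windows printed.
EGFR, chr7:55018767-55019066, plus strand: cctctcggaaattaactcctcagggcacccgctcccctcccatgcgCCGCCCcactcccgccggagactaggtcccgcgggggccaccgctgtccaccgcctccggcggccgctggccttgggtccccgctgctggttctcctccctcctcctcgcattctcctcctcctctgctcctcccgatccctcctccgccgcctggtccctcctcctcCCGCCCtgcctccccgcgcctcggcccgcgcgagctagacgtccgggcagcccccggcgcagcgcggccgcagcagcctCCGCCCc
EREG, chr4:74364895-74365194, plus strand: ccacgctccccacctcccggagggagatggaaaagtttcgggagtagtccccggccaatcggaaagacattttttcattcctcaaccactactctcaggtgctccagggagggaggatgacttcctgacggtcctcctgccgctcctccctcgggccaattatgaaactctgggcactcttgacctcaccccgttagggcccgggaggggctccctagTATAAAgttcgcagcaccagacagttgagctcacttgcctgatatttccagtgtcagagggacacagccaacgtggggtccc
The EGFR window had 75.3% G and C and 3 GC boxes, first bases at -204, -36 and 44 from the start, with no TATA box. The EREG window had 57.7% G and C, no GC box and 1 TATA box at -32. Neither window held the AP-1 or ETS letters searched for, which says only that those letters are not in these windows. A second RefSeq window of EGFR, at a start inside the gene, had 42.0% G and C, 2 TATA boxes and 2 AP-1 matches.

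In all, 9 of the 10 genes had a window, 11 windows together. TATAAA was present in 4 of these, those of EPGN (at -29), EREG (-32), AREG (-29) and the inner start of EGFR, and in 11.6% of all 34943 windows of this length. GC boxes were present in 6 of the 11, among them those of HBEGF and BTC, and in 44.9% of all windows. AP-1 matches were present in 2 of the 11, the ERBB2 window and the inner EGFR window, and in 7.72% of all windows. ETS matches were present in 1 of the 11, that of ERBB2, and in 10.2% of all windows. The median G and C content of all windows was 58.7%. The neighbouring genes EPGN and EREG both carried a TATA box match near the start, with differences of 0.10 and -1.06. The motifs were picked after the values had been seen, and a match is a description of the letters, not of a bound site.

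Other genes of the pathway were described from 4 lists, also chosen with earlier results of these data known. The remaining ERBB ligands were at low signal: NRG2, a neuregulin that binds ERBB3 and ERBB4, was the only member of 5 above the filter, at 6.60 on the miR-491-5p array and 6.86 on the control miRNA array (-0.26). EGF itself read 4.68 on the miR-491-5p array and 4.90 on the control miRNA array, and NRG1, NRG3 and NRG4 were also below the filter on both.

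Of 11 genes for ligand shedding, 8 passed the filter and 0 reached 1.5-fold in either direction, beside 3.62% of all genes lower and 0.675% higher, so that 0 of 8 sets this list apart in neither direction. Their median was -0.08, beside -0.07 for all genes. ADAM17, the main sheddase of TGFA, AREG, EREG and HBEGF, had the most negative difference of the list, -0.41 (11.38 on the miR-491-5p array and 11.79 on the control miRNA array). Its partner RHBDF2, the iRhom that carries ADAM17 to the cell surface, differed by -0.30. ADAM10, which sheds EGF and BTC, differed by 0.12, and ADAM9 by -0.21.

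Receptor-proximal adaptors and effectors had a median of -0.15 over 16 genes above the filter of 17 listed (PIK3R2 has no value here). Of these, 3 were at least 1.5-fold lower and 0 higher, against 3.62% of all genes lower and 0.675% higher at 1.5-fold. None was past 2-fold, where 0.758% of all genes were lower and 0.0487% higher. VAV2, a signalling protein phosphorylated by activated EGFR, read 9.03 on the miR-491-5p array and 9.80 on the control miRNA array (1.71-fold lower). SHC1, the adaptor that couples the receptors to GRB2 and RAS, was 1.61-fold lower, and GRB7, an adaptor of ERBB2 and ERBB3, was 1.56-fold lower. After either scaling 2 genes rather than 3 were past 1.5-fold, where 2.68% of all genes were lower after median centring and 2.69% after loess. PTPN11, the phosphatase SHP2 that sustains RAS signalling, differed by -0.38, while GRB2 differed by 0.01 and STAT3 by 0.06.

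Among receptor inhibitors and turnover genes, 1 of the 20 above the filter, UBASH3B, was past 1.5-fold lower and 0 were higher, a share near the 3.62% of all genes that were lower by that much. UBASH3B encodes a protein that binds the ubiquitin ligase CBL and slows removal of activated EGFR from the surface. Its signal was 10.27 on the miR-491-5p array, against 11.51 on the control miRNA array, 2.36-fold lower. It alone of the 20 was past 2-fold, beside 0.758% of all genes lower by that much. ERRFI1 (MIG6), an inhibitor of the EGFR kinase that is induced by ERK signalling, differed by -0.54, the endosomal sorting protein HGS by -0.34 and the phosphatase PTPN2 by -0.30. Over these 20 genes, of 22 listed, the median was -0.08, and CBL itself differed by -0.03. Negative differences were found for 18 of the 20 as deposited, where 64.8% of all genes had one. The count was 10 after median centring and 11 after loess. Centring makes negative and positive differences about equally common over all genes by construction. PTPRJ has no value here.

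**Figure D4:**
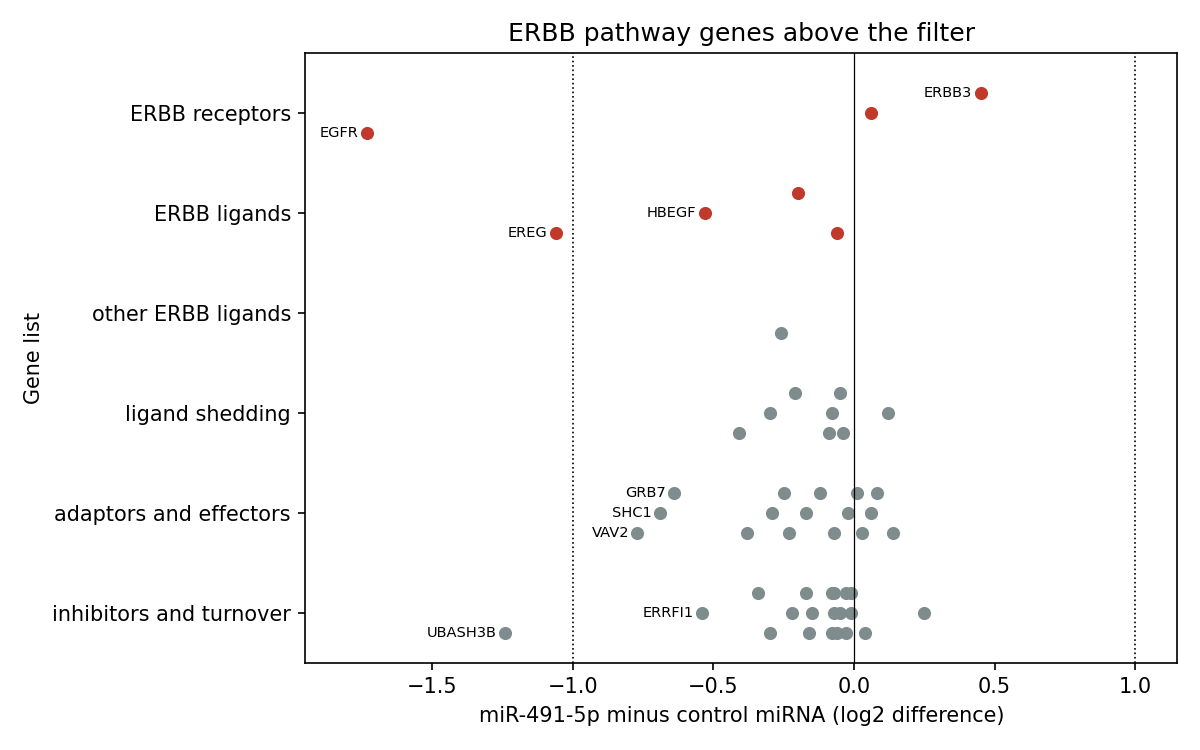
Each point is a gene above the filter, placed by its miR-491-5p minus control miRNA log2 difference, with the ERBB receptors and ligands in red and the 4 other pathway lists in grey; vertical scatter within a list is for legibility, and dotted lines mark 2-fold. Past 2-fold lower are EGFR (-1.73), UBASH3B (-1.24) and EREG (-1.06); genes named in the plot are those at -0.50 or below, or at 0.40 or above, and no gene of these lists is 2-fold higher.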

How the data were processed

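Total RNA (100 ng per array) was labelled as biotinylated single-strand cDNA, per the labels' protocols, and each group had 1 array. The deposited log2 signals came from RMA (robust multi-array average) run by the authors, as the submitters' processing notes state. For RMA version, background settings and genome build, the value is not given in the sources used here. The log base is not stated, and base 2 was assumed from RMA. Values ran between 2.53 and 19.22 on the miR-491-5p array and between 2.58 and 19.18 on the control miRNA array, and sorted columns differed by up to 0.14. The highest values lie above the usual log2 range of scanner signals. Folds are powers of 2 of deposited differences, and another base or a rescaling before deposit would change them. Of 67528 probe sets, 23781 carried 1 gene symbol in the platform annotation. Each gene took its probe set with the highest mean, and each of the 8 measured members had only 1. A spread between replicates does not exist, so no test was made and the number of arrays limits the precision. Counts past 2-fold (a difference of 1), 1.5-fold (0.58) and 3-fold were made over genes above the filter.

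Named genes were all members, up to 4 per pathway list with the largest differences, 3 neighbours on each side of EGFR and of the EREG run, and the 3 genes nearest in difference, given as a count where tied. Cell type markers came from a list, and which of its smaller differences to print (PAX8, EPCAM, MUC16, PTPRC, PECAM1 and VWF) was decided with their values known. GRB2, STAT3, CBL, EGF and NRG1, NRG3 and NRG4 were named after their values were seen. The members and lists were chosen with earlier results of these data known. All 10 member symbols matched RefSeq (GRCh38.p14), which gave sequences and gene order. Counting was tested on simulated data. Tools were Python 3.11.15, statsmodels 0.14.6 for loess, pandas 2.3.3, numpy 2.4.6 and matplotlib 3.10.9. Alternatives were median centring, loess (span 0.3), other filters, mean probe sets and other folds.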

Additional observations from a re-analysis of the deposited data

How the results depend on the processing

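EGFR kept its direction and stayed past 2-fold under both scalings, at -1.66 after median centring and -1.65 after loess. The scalings shifted genes by only 0.07 (median centring) or 0.02 to 0.11 (loess), too little to bring its deposited -1.73 inside 2-fold. The filter, probe set and fold alternatives reuse the deposited EGFR difference and could not move it. The EREG difference was -0.99 under both scalings, just inside 2-fold, so the count of members at least 2-fold lower was 1 under each, against 2 as deposited. It was also 1 at 3-fold. Centring adds 0.07 to every difference by construction. The count of higher members was 0 in every alternative run, at 2-fold or, in the fold alternatives, at 1.5-fold or 3-fold. The highest member difference was 0.45 (ERBB3) and neither scaling added more than 0.11, so this count could not change. The median of the members was -0.13 under both scalings. BTC turned to 0.01 under both. Other filters and averaging of probe sets left the difference of each of the 7 members as it was, since each has 1 probe set. Dropping the filter brought in EPGN, and the median over 8 members was then -0.13. Over all genes, median centring gave 0.564% lower and 0.0904% higher at 2-fold. Leaving out a replicate could not be done. No paired analysis was possible because there is a single array in each group. Signal over background is unknown, which limits HBEGF, TGFA, BTC and EPGN most.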
